A study of Homo sapiens with 18 samples.

Results

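FOXJ1 and 32 other genes of the motile cilium were followed in OVCAR3 cells, a line from a high-grade serous ovarian carcinoma, as 33 of the 55765 gene symbols counted by RNA sequencing. The 33 were chosen by name, as textbook regulators and parts of motile cilia, because FOXJ1 was among the largest decreases of cells treated with non-specific IgA against untreated cells. That contrast, and the one of the same IgA libraries against IgG, are therefore given here as a description. The study asked how IgA that enters tumour cells changes their transcription. A first series held 3 libraries each of cells given IgA (labelled IgA_Coated), of cells given IgG (IgG_Coated) and of untreated cells, and a second held 3 each of cells given IgA against BDNF (a secreted growth factor), of cells given IgA against TSPAN7 (a cell surface tetraspanin) and of untreated cells. All antibodies were used at 0.5 µg per ml for 24 h in medium with little serum according to the labels, although supplementary descriptions of both series give a shorter incubation. All cells were of 1 line. The study describes the replicates of the first series as experiments, the labels do not say how these were kept apart, and the p-values below measure the spread between these libraries.

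Motile cilia beat by means of dynein arms that slide the microtubule doublets of the axoneme past each other. FOXJ1, a forkhead transcription factor, switches on the genes of this machine together with RFX factors, and it marks the ciliated cells of the fallopian tube, where the secretory cells beside them carry PAX8. Serous carcinoma cells resemble the secretory lineage.

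The 9 libraries of the first series held 27920733 to 42371474 counts each, and those of the second 39254350 to 47381836. The share of counts from mitochondrial genes was 19.1% in IgA replicate 3, against 5.75% to 8.32% in the other libraries of its series and 8.60% to 10.2% in the second series. PAX8, WT1, MUC16, EPCAM, KRT7, KRT8, KRT18, SOX17 and CDH1 had at least 533 counts in every library, while the lymphocyte genes CD3E and MS4A1 had at most 2. Fibroblast collagens were expressed, with 514 counts or more of COL1A1, but DCN and PDGFRB had at most 16 and 7. Of the markers of ciliated cells outside the 33 genes, CCDC17 had 6 to 43 counts and CCDC78 21 to 110.

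The promoters of the group are shown first, as a feature that played no part in the choice of the genes. RefSeq promoters on GRCh38.p14 were held for 25 of the 33 genes, and FOXJ1, RFX2, RSPH1, SPAG1, HYDIN, TEKT2, LRRC6 and TPPP3 had none. The 250 bases before the first listed start of each gene were searched on both strands for GTTGCC (reverse complement GGCAAC), the core of the site that RFX factors bind, and for TGTTTAC (reverse complement GTAAACA), a forkhead site. Neither motif contains the other. Only exact copies were counted, so RFX or forkhead sites of another spelling were not searched for. GTTGCC stood in 12 of the 25 promoters (48%) and in 2756 of all 27305 promoters (10.1%). TGTTTAC stood in 2 of the 25, those of SPAG16 and TEKT1, and in 2.98% of all promoters. The 30 bases around the GTTGCC nearest the start are given for the 7 of these 12 genes that had enough counts to be tested, read in the direction in which the match, in capitals, spells GTTGCC.
DNAH1, chr3:52316210-52316239, minus strand: gcatctatccggGTTGCCatGGCAACatca
DNAI1, chr9:34458559-34458588, minus strand: cccggaagtggaGTTGCCgagtcaccgcag
CCDC39, chr3:180679647-180679676, plus strand: acgttcccggggGTTGCCaggcggcagcgt
CCNO, chr5:55233828-55233857, minus strand: acccgggctccgGTTGCCcaggtaacgcag
RSPH4A, chr6:116616417-116616446, minus strand: ctcaccgcgcctGTTGCCaggattcgaggg
RSPH9, chr6:43644881-43644910, minus strand: gggatgtcttcaGTTGCCacggccacagta
SPAG16, chr2:213284416-213284445, plus strand: agcgtcttcgctGTTGCCcttagggacggc

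In DNAH1 the match was followed by its own reverse complement, the mirrored form of a full RFX site. Less exact mirrored copies were not searched for in DNAH1 or the other genes. The other 5 genes with GTTGCC were DNAH2, DNAI2, CCDC103, SPAG6 and TEKT1, which were too low to test in either series. Of the 7 genes that passed the test in any comparison below, RFX3, DNAH11, ARMC4 and CAPS had a promoter in the table, and 0 of these 4 held GTTGCC in this window. CAPS had the smallest adjusted p of the group in the second series. The 250 bases before its start, with no exact copy of either motif and hence no capitals, are printed for comparison.
CAPS, chr19:5914004-5914253, plus strand: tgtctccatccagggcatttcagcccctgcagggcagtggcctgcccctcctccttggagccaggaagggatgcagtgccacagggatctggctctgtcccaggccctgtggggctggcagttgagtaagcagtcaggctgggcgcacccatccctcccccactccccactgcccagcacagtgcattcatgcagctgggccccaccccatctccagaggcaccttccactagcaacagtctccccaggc

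The genes of the group were expressed at very unequal levels in untreated OVCAR3 cells. On a scale of RPKM (counts per kilobase of exon, scaled for the depth of the library), 8 of the 33 reached 1 in each series, whereas 10 in the first and 13 in the second stayed below 0.1. The length of a gene was that of all its annotated exons merged, so these levels and their order depend on the annotation. The same 8 genes led in both series: SPAG1, a factor that helps to assemble dynein arms, at 5.23 ± 0.615 and 6.39 ± 0.554 RPKM (SD, n = 3), followed by RSPH1, SPAG16, RFX3, CCNO, RFX2, ARMC4 and CAPS at 1.13 to 2.64 RPKM. These 7 lay close together, and their order differed between the series. FOXJ1 stood at 0.838 ± 0.200 RPKM in untreated cells of the first series and at 0.235 ± 0.0760 in those of the second. Each series was scaled by itself, and these values were not tested against each other. Several defining parts of the axoneme were close to absent: DNAI2, an intermediate chain of the outer dynein arm, had 1 count in 1 of 18 libraries, and TEKT1, a tektin of the ciliary doublets, had at most 3 counts in any.

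**Figure D1:**
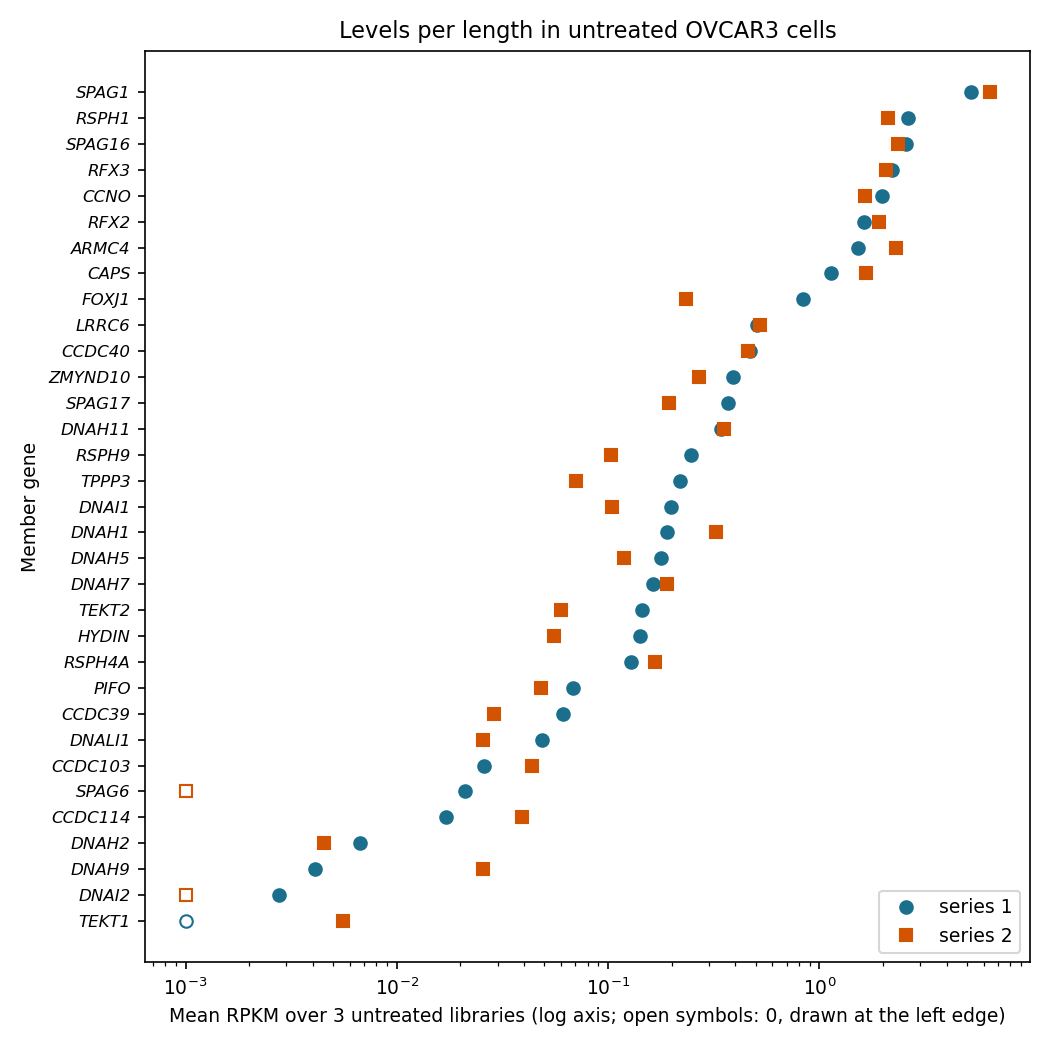
Mean RPKM (log axis) of each of the 33 genes in the 3 untreated libraries of the first series (circles) and of the second (squares), with open symbols for 0. Levels run from 0 to 6.39, with 8 genes at 1 or more in both series and FOXJ1 lower in the second series than in the first.

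A gene was tested in a series when it passed edgeR's filter on low counts, which asks for about 10 counts at the median library size in as many libraries as a group holds (3), and this left 25 of the 33 in each series and 23 in both. DNAH2, DNAI2, DNALI1, CCDC103, SPAG6 and TEKT1 were too low in both, with at most 15 counts in any library. DNAH9 and CCDC114 were too low in the first series alone, and TEKT2 and PIFO in the second alone. Values below are normalised counts, which are counts brought to 1 common library size within a series, and differences are log2 fold changes from edgeR's quasi-likelihood test, adjusted over all genes tested. A gene is called when the adjusted p is under 0.05.

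FOXJ1, the forkhead factor of the group, had 7.85, 5.0 and 15.8 normalised counts in the 3 IgA libraries of the first series, from 7, 5 and 10 reads. It had 52.3, 66.5 and 85.6 in the IgG libraries and 65.4, 66.4 and 97.5 in untreated cells. All IgA libraries lay below all others, and the IgG and untreated libraries overlapped. The log2 fold change was -3.06 ± 0.44 (SE) for IgA against untreated cells, the contrast that led to the choice of the genes, and -2.89 ± 0.45 for IgA against IgG, which shares its IgA libraries. For IgG against untreated cells, which played no part in the choice, it was -0.17 (95% interval -0.88 to 0.54, adjusted p = 1). In bulk RNA, fewer cells that express a gene and less RNA per cell cannot be told apart.

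Markers of the carcinoma cells moved in the same comparisons. Of the 9 markers named above, 2 were called higher with IgA (PAX8 and KRT7) and 3 lower (WT1, SOX17 and KRT8), against untreated cells and against IgG alike. These were 55.6% of the 9 in each comparison, beside 25% and 24.2% of all genes tested. With IgG against untreated cells 0 were called, beside 0% of all genes. WT1, a transcription factor of serous carcinoma, averaged 1976 normalised counts with IgA, 4472 with IgG and 4763 in untreated cells. The sum over the 9 markers, in which the most abundant weigh most, overlapped between the groups. It was 159200 to 252000 with IgA, 162500 to 203200 with IgG and 166600 to 218900 in untreated cells. Of 5 fibroblast genes, 3 were tested and 2 were higher with IgA than with IgG (COL1A1 and COL1A2), or 66.7% beside 24.2% of all genes. None of these was called against untreated cells. The sums of the 5 were 2395 to 4875 with IgA, 2063 to 2289 with IgG and 2218 to 2463 in untreated cells. The endothelial gene CDH5 was called higher with IgA than in untreated cells, at 14.2 to 40.0 and 1.04 to 5.04 normalised counts, and none of 5 leukocyte genes was called. The part of these markers in the FOXJ1 result was not tested.

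In the second series FOXJ1 had 6 to 34 reads per library. Cells given TSPAN7 IgA had 5.99, 11.6 and 9.74 normalised counts, cells given BDNF IgA 32.3, 13.0 and 32.3, and untreated cells 16.2, 31.4 and 29.8. Every TSPAN7 IgA library lay below every library of the other groups, which overlapped each other. FOXJ1 was lower with TSPAN7 IgA than in untreated cells by a log2 fold change of -1.5 ± 0.44 (adjusted p = 0.0369) and than with BDNF IgA by -1.5 ± 0.44 (adjusted p = 0.0392). BDNF IgA and untreated cells did not differ by the test (0.00, 95% interval -0.73 to 0.74, adjusted p = 0.998). Of the 9 carcinoma markers, KRT7 was higher with TSPAN7 IgA than in untreated cells and WT1 and MUC16 were lower. Against BDNF IgA the same genes were called and CDH1 was also lower. These were 33.3% and 44.4% of the 9, beside 8.54% and 7.92% of all genes tested. The sum of the 9 markers was 184500 to 189100 with TSPAN7 IgA, 207100 to 249000 with BDNF IgA and 204300 to 219500 in untreated cells. The TSPAN7 IgA libraries were lowest without overlap in this sum, in which the most abundant markers weigh most. The leukocyte gene PTPRC was higher with TSPAN7 IgA than in untreated cells, at 10.8 to 25.3 and 6.08 to 9.03 normalised counts, and CD3E and MS4A1 stayed at 2 counts or fewer. With BDNF IgA against untreated cells PAX8, KRT7 and CDH1 were higher, or 33.3% of the 9 beside 7.67% of all genes tested. The part of these markers was not tested.

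Both FOXJ1 calls of the second series rested on few reads. The call against untreated cells was lost without TSPAN7 replicate 1 (-1.27, adjusted p = 0.141), 2 (-1.71, 0.0789) or 3 (-1.55, 0.0950), without untreated replicate 2 (-1.34, 0.138) or 3 (-1.38, 0.128), and in limma with voom (-1.30, 0.0502), and DESeq2 gave no adjusted p for it. The call against BDNF IgA was lost without TSPAN7 replicate 1 (adjusted p = 0.144), 2 (0.0939) or 3 (0.0976), BDNF replicate 1 (0.168) or 3 (0.201), or untreated replicate 2 (0.0504), and when only the 6 libraries of the pair were fitted (0.0521), and DESeq2 gave no adjusted p for it either. In the first series the log2 fold change of IgA against untreated cells stayed between -3.57 and -2.74 when any 1 library was left out.

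**Figure D2:**
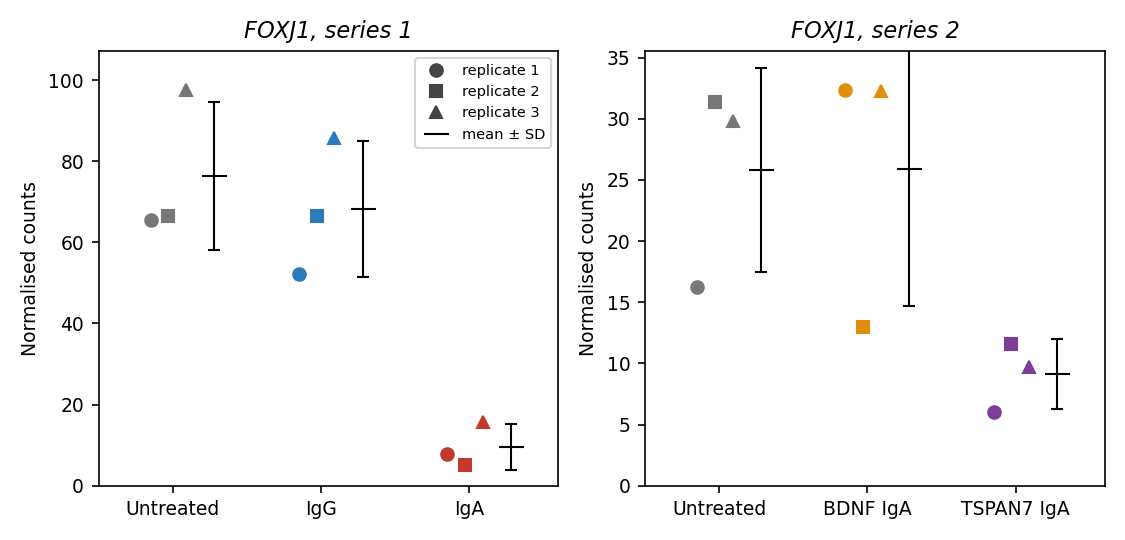
Normalised counts of FOXJ1 in each of the 9 libraries of the first series (left) and of the second (right), with the mean and SD of each group beside the points. The IgA libraries (5.0 to 15.8) lie below all others on the left, and the TSPAN7 IgA libraries (5.99 to 11.6) below all others on the right.

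FOXJ1 lies on the minus strand of chromosome 17 (GRCh37, chr17:74132414-74137326), and its exons overlap those of RNF157-AS1 on the other strand, so that reads of the 2 genes cannot be separated if the counting ignored strand, which is not stated. RNF157-AS1 had 5.61, 12 and 26.9 normalised counts with IgA, 32.7, 59.2 and 90.0 with IgG and 47.8, 37.8 and 56.4 in untreated cells. The second series held 11, 6.32 and 18.4 with TSPAN7 IgA, 27.3, 26.0 and 40.9 with BDNF IgA and 19.3, 37.4 and 20.8 in untreated cells. The IgA and the TSPAN7 IgA libraries were again the lowest of their series, without overlap. RNF157-AS1 was called lower with IgA than in untreated cells (log2 fold change -1.73) and than with IgG (-2.08). The first call was lost in 6 of the 9 fits that left out 1 library. With TSPAN7 IgA it was called lower than with BDNF IgA (-1.40), though not by DESeq2. For TSPAN7 IgA against untreated cells the difference did not pass the test (-1.11, adjusted p = 0.106). The part of RNF157-AS1 in the FOXJ1 counts was not tested.

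RFX2 and RFX3 belong to the RFX factors, which bind the promoters of ciliary genes. In the second series RFX2 had 907, 903 and 953 normalised counts with TSPAN7 IgA, 855, 983 and 846 with BDNF IgA and 735, 716 and 754 in untreated cells. Both antibody groups lay above the untreated libraries and overlapped each other. RFX2 rose by 0.32 ± 0.07 with TSPAN7 IgA (log2 fold change, adjusted p = 0.00492) and by 0.28 ± 0.07 with BDNF IgA (adjusted p = 0.0145), the second of which was lost without untreated replicate 1 (adjusted p = 0.0514) or 2 (0.0715). The exons of RFX2 overlap those of ACSBG2 on the other strand, which had at most 15 counts in any library.

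RFX3 had 851, 825 and 821 normalised counts with TSPAN7 IgA, 1024, 941 and 1167 with BDNF IgA and 977, 992 and 955 in untreated cells. The TSPAN7 IgA libraries were the lowest, without overlap. TSPAN7 IgA against BDNF IgA gave RFX3 a log2 fold change of -0.33 ± 0.07 (adjusted p = 0.00716), a call that was lost without BDNF replicate 3 (-0.24, adjusted p = 0.0734). Against untreated cells the value of -0.23 ± 0.07 missed the threshold in edgeR (adjusted p = 0.0535) and passed it in DESeq2, in limma with voom, and without BDNF replicate 2 or 3. In the first series RFX2 and RFX3 had 479 to 607 and 723 to 1074 normalised counts, with overlap between all groups.

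CAPS, which encodes the calcium-binding protein calcyphosine and marks ciliated cells of the fallopian tube, had 88.9, 79.1 and 72.5 normalised counts with TSPAN7 IgA, 139, 130 and 151 with BDNF IgA and 169, 179 and 194.2 in untreated cells. The 3 groups followed each other without overlap, from TSPAN7 IgA to BDNF IgA to untreated cells. CAPS fell by 1.17 ± 0.15 on the log2 scale with TSPAN7 IgA against untreated cells (adjusted p = 1.6e-05), and the log2 fold change of TSPAN7 IgA against BDNF IgA was -0.80 ± 0.15 (adjusted p = 0.00201). BDNF IgA against untreated cells did not pass the test (-0.37 ± 0.14, adjusted p = 0.104). Both calls held when any 1 library was left out, at -1.25 to -1.10 and -0.88 to -0.74. The exons of CAPS overlap those of RANBP3 on the other strand, whose mean went the other way, with 2983 normalised counts with TSPAN7 IgA and 2709 in untreated cells. In the first series CAPS had 169, 47.0 and 107 normalised counts with IgA, on both sides of the 95.9 to 115 of the other 6 libraries.

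Of the other markers of ciliated cells, PIFO and TPPP3 were low. TPPP3, a tubulin polymerization-promoting protein, had 10.1, 7.0 and 0 normalised counts with IgA, 7.47 to 19.8 with IgG and 16.6 to 23.5 in untreated cells, and 3.03 to 14.3 over the second series. PIFO, a protein of the ciliary base, had 17 counts or fewer in each of the 18 libraries. CCNO, a cyclin-like protein needed for the mass production of centrioles, had 197, 186 and 99.5 normalised counts with IgA and 109 to 141 in the other libraries of its series. CCNO stayed between 109 and 129 in all groups of the second series.

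Among the dynein heavy chains, the motors of the arms, DNAH11 of the outer arm had 192, 182 and 179 normalised counts with TSPAN7 IgA, 214, 198 and 200 with BDNF IgA and 240, 245 and 243 in untreated cells. The 3 groups did not overlap. DNAH11 fell by 0.40 ± 0.11 on the log2 scale with TSPAN7 IgA against untreated cells (adjusted p = 0.0244), a call that was lost without TSPAN7 replicate 2 (adjusted p = 0.0910) or 3 (0.0907) and without untreated replicate 1 (0.0652), 2 (0.0781) or 3 (0.0732). Its exons overlap those of CDCA7L on the other strand, which averaged 2448 normalised counts with TSPAN7 IgA and 2244 in untreated cells. In the first series DNAH11 had 76.2, 151 and 193 with IgA and 157 to 297 in the other libraries, with overlap.

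**Figure D3:**
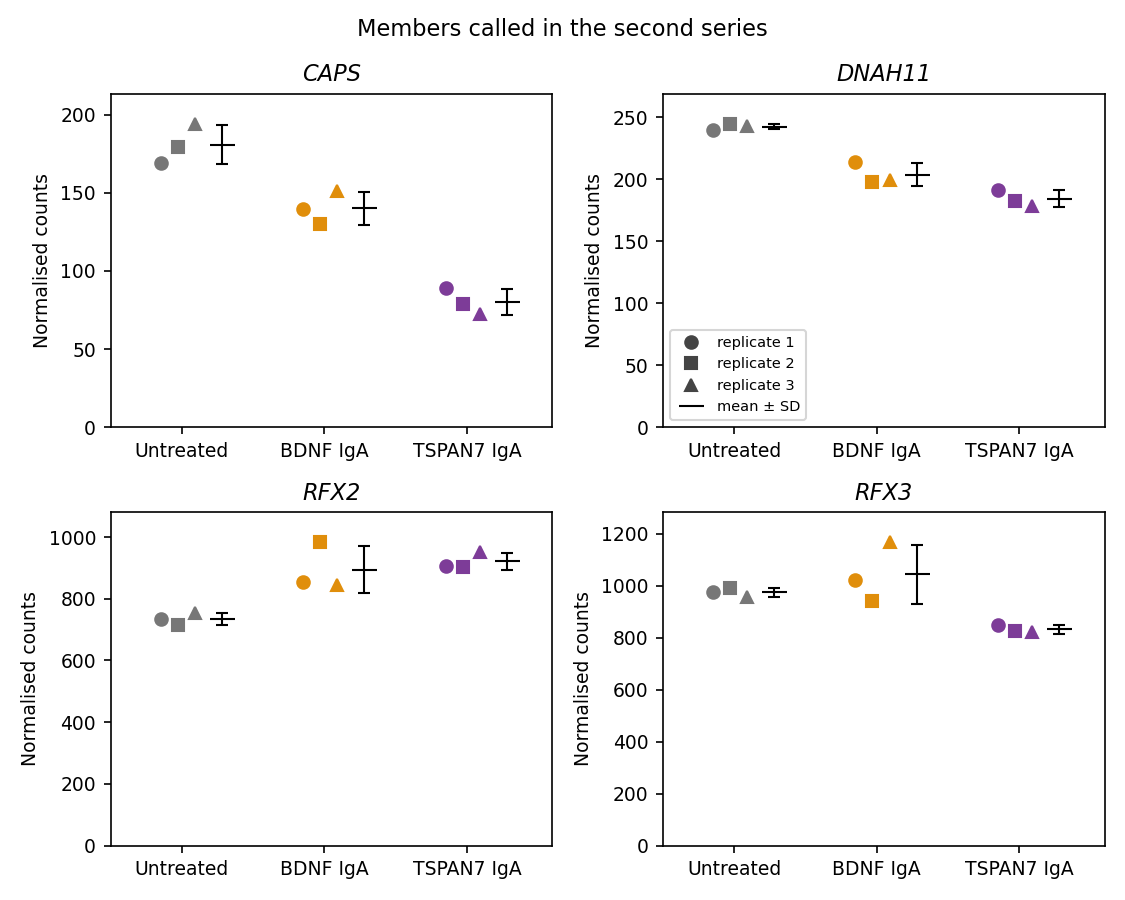
Normalised counts of CAPS, DNAH11, RFX2 and RFX3 in the 9 libraries of the second series, with the mean and SD of each group beside the points. TSPAN7 IgA libraries are lowest for CAPS (72.5 to 88.9), DNAH11 (179 to 192) and RFX3 (821 to 851), and both antibody groups lie above untreated cells for RFX2.

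The inner arm chain DNAH1 had 59.4, 28.0 and 201 normalised counts with IgA, 113 to 135 with IgG and 74.8 to 120 in untreated cells. The inner arm chain DNAH7 had 63.9, 59 and 122 with IgA, 85.6 to 118 with IgG and 90.8 to 145 in untreated cells. In both genes IgA replicates 1 and 2 lay below all 6 other libraries and IgA replicate 3, the library with the high mitochondrial share, did not. The log2 fold changes against untreated cells were 0.00 ± 0.52 for DNAH1 and -0.61 ± 0.31 for DNAH7 over all IgA libraries, and -1.10 and -1.0 without IgA replicate 3, where both were called. DNAH5, an outer arm chain, had 111 to 283 normalised counts in libraries of the first series, and DNAI1, an outer arm intermediate chain, 14.6 to 28.0. Libraries of the second had 122 to 166 of DNAH5 and 11.1 to 22.3 of DNAI1. DNAH9, an outer arm chain, had 13.1 to 21.7 in the second series. None of DNAH1, DNAH5, DNAH7, DNAH9 and DNAI1 was called in the second series.

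The factors that assemble and dock the dynein arms gave 1 call. ARMC4 (also ODAD2), part of the docking complex of the outer arm, had 315, 685 and 738 normalised counts with IgA, 360, 314 and 304 with IgG and 306, 379 and 333 in untreated cells. IgA replicates 2 and 3 lay above all others, and IgA replicate 1 lay among them. The log2 fold change was 0.77 ± 0.25 against untreated cells and 0.82 ± 0.25 against IgG, both called higher, and neither was called when only the 6 libraries of the pair were fitted, with library sizes alone or in limma with voom. Of the fits that left out 1 library, the call against untreated cells was kept only without IgA replicate 1, and that against IgG only without IgA replicate 1 or an untreated library (range 0.56 to 1.06 and 0.62 to 1.12). ARMC4 had 513 to 683 normalised counts in the second series, with overlap between all groups. CCDC114, another part of that complex, had 5.99 to 17.1 in the second series. The assembly factors SPAG1, ZMYND10 and LRRC6 were called in no comparison. SPAG1 had 839 to 1156 normalised counts in libraries of the first series and 1186 to 1655 in those of the second, ZMYND10 22.0 to 58.0 and 19.5 to 43.7, and LRRC6 42.0 to 101 and 78.0 to 152.

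CCDC39 and CCDC40 form the ruler that sets the repeat along the axoneme. CCDC39 had 8.97, 16.0 and 1.58 normalised counts with IgA, 19.6 to 24.6 with IgG and 20.8 to 26.1 in untreated cells, so that the IgA libraries were lowest without overlap, from 1 to 16 reads. CCDC40 had 93.1, 95.9 and 248 with IgA, 106 to 164 with IgG and 151 to 183 in untreated cells, so that IgA replicate 3 was the highest and the other IgA libraries the lowest of the series. Neither was called in any comparison of all libraries.

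HYDIN, a very large protein of the central pair of microtubules, had 60.6, 87.9 and 109 normalised counts with IgA, 123, 150 and 165 with IgG and 143, 132 and 155 in untreated cells. The IgA libraries lay below all others. The log2 fold change was -0.75 ± 0.25 against untreated cells and -0.77 ± 0.25 against IgG, both called lower and neither called when only the 6 libraries of the pair were fitted. Of the fits that left out 1 library, the first call was kept only without IgA replicate 3 or IgG replicate 3 and the second only without IgA replicate 3 or IgG replicate 1 (range -0.94 to -0.55 and -0.97 to -0.58). HYDIN has a near-identical copy, HYDIN2, listed at 0 counts in all 18 libraries, and its counts are uncertain to the extent that reads were lost to or shared with that copy. HYDIN had 46.1 to 98.8 in the second series, with overlap between all groups. SPAG16 and SPAG17 of the central pair were not called either, with 594 to 831 and 76.2 to 148 normalised counts in libraries of the first series, and 781 to 990 and 48.5 to 103 in those of the second.

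The radial spokes carry signals between the central pair and the dynein arms. RSPH1, a spoke head protein, had 246, 198 and 188 normalised counts with TSPAN7 IgA, 258, 251 and 362 with BDNF IgA and 231, 290 and 254 in untreated cells. The TSPAN7 IgA libraries lay below the BDNF IgA libraries and overlapped the untreated ones. The log2 fold change of TSPAN7 IgA against BDNF IgA was -0.46 ± 0.14 (adjusted p = 0.0506), a value that passed without BDNF replicate 2 or TSPAN7 replicate 1, in DESeq2, in limma with voom and with library sizes alone. RSPH4A and RSPH9, also of the spoke head, had at most 17.7 and 28.4 normalised counts in any library of the first series, and 27.4 and 19.0 in any of the second. TEKT2, a tektin, had 4.0 to 14.3 in the first series, and none of these 3 was called.

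**Figure D4:**
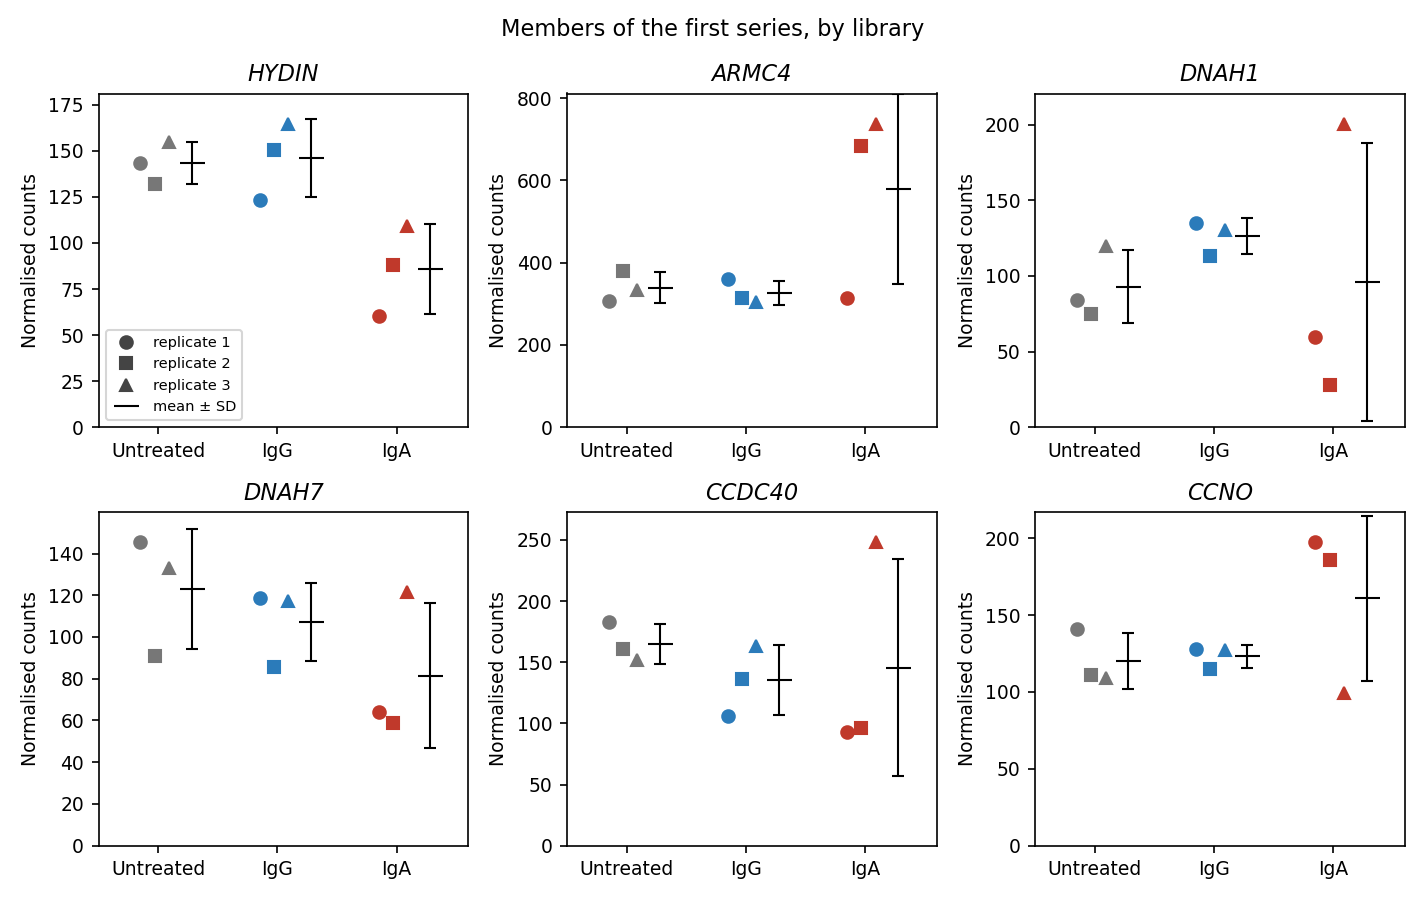
Normalised counts of HYDIN, ARMC4, DNAH1, DNAH7, CCDC40 and CCNO in the 9 libraries of the first series, with the mean and SD of each group beside the points. IgA replicate 3 (triangle) stands apart from the other IgA libraries for DNAH1, DNAH7, CCDC40 and CCNO.

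Counted over the group, with IgA against untreated cells 2 of the 25 tested genes were called lower (FOXJ1 and HYDIN) and 1 higher (ARMC4), or 12% against 25% of all 18012 genes tested (12.1% lower and 12.9% higher), and nothing is read from this count since the genes were chosen from this contrast. The median log2 fold change of the 25 was -0.27, against -0.01 for all genes tested, and the groups did not overlap for 6 genes that were lower and 0 that were higher (20.1% and 19.8% of all genes). With IgA against IgG the same 3 genes were called in the same directions, 12% against 24.2% of all genes (11.6% lower and 12.6% higher), with a median of -0.13, and the groups did not overlap for 4 lower and 0 higher genes (20.6% and 19.7% of all genes). Without IgA replicate 3, 5 genes were lower in each of these comparisons: FOXJ1, HYDIN, DNAH1 and DNAH7 in both, with CCDC40 against untreated cells and DNAH11 against IgG, while CCNO and not ARMC4 was the 1 gene called higher. In those fits 12.8% of all 18614 genes tested were lower and 13.2% higher against untreated cells, and 12.9% in each direction against IgG. IgG against untreated cells gave 0 calls among the 25 by edgeR, DESeq2 and limma, 0 at an unadjusted p under 0.05, and 0% of all genes, with 89 genes (0.494%) at an unadjusted p under 0.05. Its groups did not overlap for 1 lower and 0 higher genes (3.43% and 3.32% of all genes), and the median of the 25 was -0.13.

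In the second series, TSPAN7 IgA against untreated cells gave 3 genes lower (FOXJ1, CAPS and DNAH11) and 1 higher (RFX2) among 25, or 16%, against 8.54% of all 18732 genes tested, 4.08% lower and 4.46% higher. The median over the 25 was -0.02 against 0.00 for all genes, and the groups did not overlap for 5 lower and 2 higher genes (14% and 14.4% of all genes). BDNF IgA against untreated cells gave 1 call, RFX2 higher, or 4% against 7.67% of all genes (4.49% higher and 3.18% lower), with a median of 0.21 and no overlap for 6 higher and 2 lower genes (12.8% and 12% of all genes). TSPAN7 IgA against BDNF IgA gave 3 genes lower (FOXJ1, CAPS and RFX3) and 0 higher, or 12% against 7.92% of all genes (4.5% lower and 3.42% higher), with a median of -0.17 and no overlap for 6 lower and 0 higher genes (12.1% and 11.5% of all genes). At an unadjusted p under 0.05 these comparisons gave 2 higher and 5 lower, 4 higher and 2 lower, and 1 higher and 6 lower, beside 22.1%, 22.1% and 22.5% of all genes in either direction. Each pair of comparisons shares a group of libraries, and the series were not tested against each other.

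**Figure D5:**
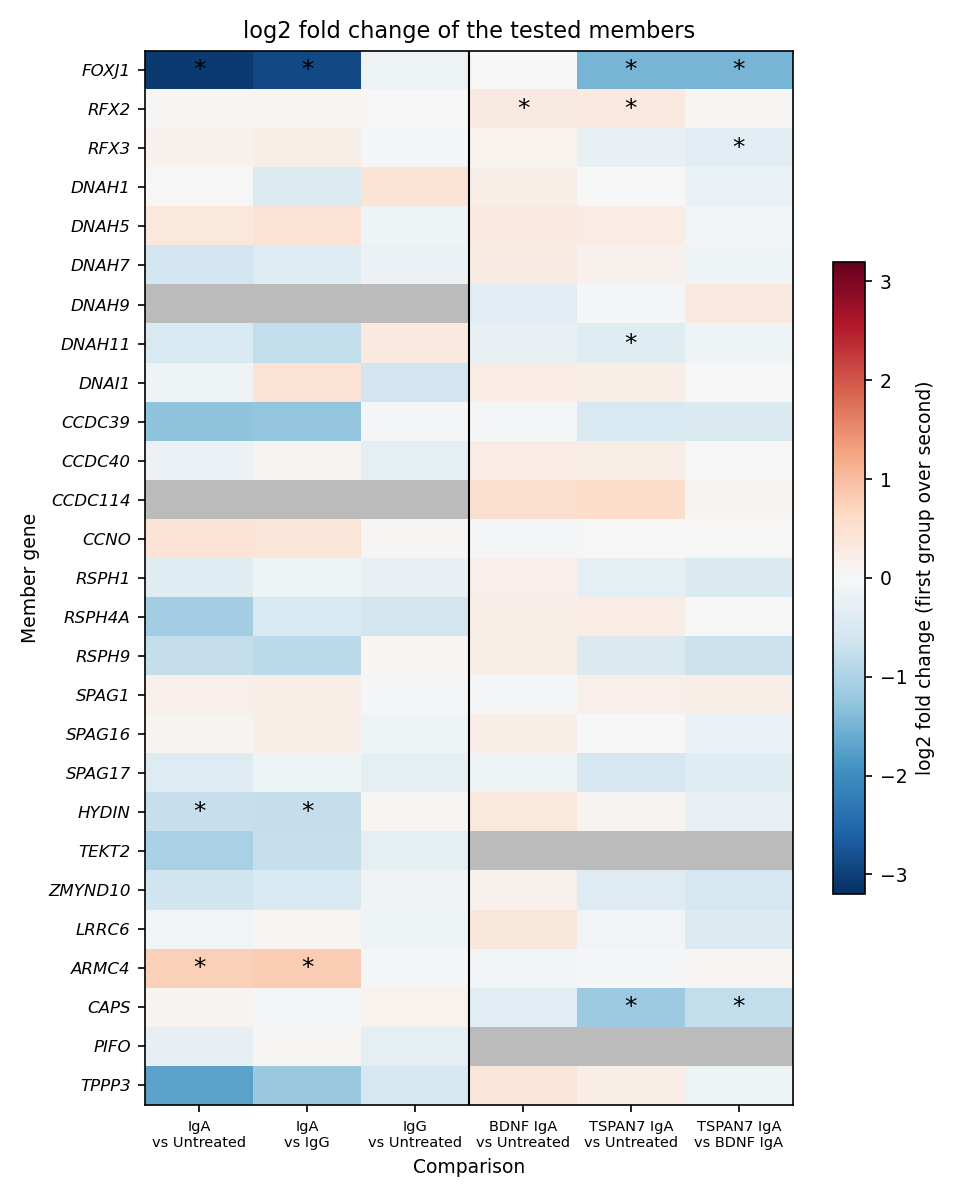
Log2 fold change (colour, first group over second) of the 27 genes tested in either series, in the 3 comparisons of the first series (left of the line) and of the second (right). Stars mark calls at an adjusted p under 0.05 and grey cells genes too low to test. FOXJ1 carries a star in 4 comparisons, and no other gene is called in both series.

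A second list held 64 other genes of motile cilia, such as further dyneins, tubulins and sperm tail proteins, of which 49 had enough counts in the second series and 48 in the first. With TSPAN7 IgA against untreated cells 2 were called lower and 0 higher by edgeR (1 higher at an unadjusted p under 0.05, 0 by DESeq2 and limma), with a median of -0.06. CCDC146, a coiled-coil protein of centrioles and sperm tails, had 95.9, 145 and 93.1 normalised counts with TSPAN7 IgA, 220, 159 and 231 with BDNF IgA and 193, 214 and 263 in untreated cells. The TSPAN7 IgA libraries were the lowest without overlap, and CCDC146 fell by 1.01 ± 0.18 on the log2 scale against untreated cells (adjusted p = 0.000812), and its log2 fold change against BDNF IgA was -0.87 ± 0.18 (adjusted p = 0.00439). TUBA1A, an alpha tubulin, fell by 0.34 ± 0.06 on the log2 scale with TSPAN7 IgA against untreated cells (adjusted p = 0.000457). Against BDNF IgA, 2 genes were lower (CCDC146 and TUBA1A) and 1 higher, the axonemal protein MNS1 (0.26 ± 0.07, adjusted p = 0.0298). The calls of CCDC146 held when any 1 library was left out. TUBA1A against BDNF IgA was lost without BDNF replicate 1 or 3 or TSPAN7 replicate 2 or 3, and MNS1 without BDNF replicate 3 or TSPAN7 replicate 2 or 3. BDNF IgA against untreated cells gave 1 call, the beta tubulin TUBB4B (-0.23 ± 0.06, adjusted p = 0.0136), which was lost without untreated replicate 2 or BDNF replicate 3. The calls on this list were 4.08%, 2.04% and 6.12% of its 49 genes with TSPAN7 IgA, with BDNF IgA and between the antibodies, below the 8.54%, 7.67% and 7.92% of all genes.

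In the first series 6 of 48 genes of this list were called lower and 3 higher in each IgA comparison, or 18.8% against 25% and 24.2% of all genes, with medians of -0.14 against untreated cells and -0.12 against IgG, and IgG against untreated cells gave 0 calls by each of the 3 tools and 0 at an unadjusted p under 0.05. Among the genes called, the largest changes against untreated cells were those of DNAH3, an inner arm chain (-1.40 ± 0.48), AK7, an adenylate kinase of cilia (-1.09 ± 0.36), and CCDC146 (-0.94 ± 0.20). CCDC146 had 141, 120 and 152 normalised counts with IgA, 211, 219 and 227 with IgG and 271, 314 and 207 in untreated cells, with the IgA libraries lowest without overlap. Among those called against IgG the largest were DNAH3 (-1.45 ± 0.48), CCDC19 (1.03 ± 0.35) and TUBA1A (0.74 ± 0.23). Apart from CCDC146 these calls were lost in several of the fits that left out 1 library. AK7 was kept only without IgA replicate 2 or 3, and CCDC19 only without IgA replicate 1. DNAH3 was kept only without IgA replicate 1 or, against IgG, untreated replicate 3. TUBA1A was lost without IgA replicate 3 or any IgG library.

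The regulators that act before or beside FOXJ1 in multiciliated cells formed a list of 13, of which 12 were tested in the first series, 9 in the second. With IgA against untreated cells 2 were lower, MYB (-1.58 ± 0.43) and TP73 (-1.24 ± 0.24), both transcription factors of early multiciliated cells, and 1 was higher, RFX1 (0.37 ± 0.12). With IgA against IgG 3 were lower, GMNC (-3.29 ± 1.03), which starts the programme, MYB (-1.28 ± 0.43) and TP73 (-1.05 ± 0.25), and 1 was higher. These calls made up 25% and 33.3% of the list, against 25% and 24.2% of all genes. GMNC rested on few reads, with 4, 0 and 0 counts with IgA and 19, 11 and 20 with IgG. The IgG libraries, where it was high, were by themselves enough to pass the filter on low counts. GMNC was not called against untreated cells, and its call against IgG is part of the 33.3%. Its call was kept only without IgA replicate 1 (-7.08) or untreated replicate 1, and its value was -2.66 without IgA replicate 2. The call of RFX1 was kept only without IgA replicate 3, and that of MYB against IgG only without IgA replicate 3 or IgG replicate 3, while MYB against untreated cells was lost without IgA replicate 1 or untreated replicate 1. TFDP1, a partner of the E2F factors, was higher in the second series with TSPAN7 IgA than in untreated cells (0.16 ± 0.05, adjusted p = 0.0475) and than with BDNF IgA (0.18 ± 0.05, adjusted p = 0.0316). The first of these was kept only without BDNF replicate 2 or 3, and the second was lost without BDNF replicate 1 or 3 or TSPAN7 replicate 2 or 3. TFDP1 was the 1 call in each comparison, or 11.1% of the 9 genes tested, beside 8.54% and 7.92% of all genes. On the same list BDNF IgA against untreated cells gave 0 calls by edgeR and DESeq2, 1 by limma and 1 at an unadjusted p under 0.05.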

How the data were processed

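RNA of 18 libraries of OVCAR3 cells was sequenced by the authors in paired-end reads. The values deposited are raw counts per gene symbol, with no normalization. According to the methods, reads were trimmed with cutadapt, aligned to GRCh37 with STAR and counted with featureCounts, whereas the submitters' processing notes list bcl2fastq 2.20.0.422, cutadapt 1.8.1 and HTSeq 0.6.1. Whether counting used strand is not given in the sources used here. In the second file 2055 exactly repeated rows were dropped. Each series was fitted by itself, over its 9 libraries, with edgeR 4.0.16 (quasi-likelihood test, TMM, genes kept by filterByExpr, Benjamini-Hochberg adjustment over all genes tested, threshold 0.05) in R 4.3.3. DESeq2 1.42.0 and limma 3.58.1 with voom were alternatives, as were other scalings, a filter on a mean of at least 10 counts, no filter, no mitochondrial genes, the 6 libraries of a pair alone, a replicate block and leaving out each library. The fits were tested on simulated counts. Groups and replicate numbers came from sample titles. The named genes are all 33 members and, of each other list, at most the 3 called genes with the largest change in a comparison. The members, lists and tests were chosen with earlier results of these data known, and HYDIN2 was added after values were seen. Gene positions and exon lengths come from GENCODE v44 lifted to GRCh37, and promoters from RefSeq. All 33 members matched the annotation, 3 by an older symbol.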

Additional observations from a re-analysis of the deposited data

Results flagged for a closer look

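FOXJ1, HYDIN and ARMC4 in the first series, and FOXJ1, CAPS and RFX3 in the second, had an adjusted p under 0.05 between the antibodies that share an untreated control. The log2 fold change of IgA against IgG was -2.89 for FOXJ1, -0.77 for HYDIN and 0.82 for ARMC4. In the second series, the log2 fold change of TSPAN7 IgA against BDNF IgA was -1.5 for FOXJ1, -0.80 for CAPS and -0.33 for RFX3. The first 3 values use the IgA libraries from which the genes were chosen and are a description. Of the 9 fits that left out 1 library, the call against IgG was lost in 7 for HYDIN and 5 for ARMC4, and that between TSPAN7 IgA and BDNF IgA in 6 for FOXJ1, 1 for RFX3 and 0 for CAPS.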

How the results depend on the processing

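Under the 9 alternatives other than leaving out 1 library, 93 of 108 counts of called members stayed within 1.5 times the reported count. The 108 include IgG against untreated cells, where the reported counts were 0. A count can also stay while its genes change. With TSPAN7 IgA against untreated cells DESeq2 called 3 lower as well, with RFX3 among them and no adjusted p for FOXJ1. For IgA against untreated cells, ARMC4 left 0 members called higher with library sizes alone, limma with voom, the 6 libraries of the pair or the replicate block, and 4 and 1 were lower with library sizes alone and with the 6 libraries. For IgA against IgG, 0 were higher with library sizes alone, voom or the 6 libraries, and 1 was lower with the 6 libraries. In the second series, voom gave 2 higher for BDNF IgA and 6 lower and 1 higher for TSPAN7 IgA against BDNF IgA, where no filter and the replicate block also gave 1 higher. Leaving out 1 library gave 0 to 1 higher and 1 to 5 lower in both IgA comparisons, and 0 and 0 for IgG. It gave 0 to 2 higher and 0 lower for BDNF IgA, and 1 higher and 1 to 4 lower for TSPAN7 IgA. TSPAN7 IgA against BDNF IgA gave 0 to 1 higher and 1 to 6 lower. Of these 9 fits, 7 moved the count of higher and 7 that of lower members beyond 1.5 times for IgA against untreated cells. For IgA against IgG 4 and 8 did. In the second series 3 and 0 did for BDNF IgA, 0 and 4 for TSPAN7 IgA, and 1 and 2 between the antibodies. Values near 0 changed sign: with 1 library left out, FOXJ1 ran from -0.37 to 0.04 for IgG (above 0 only without untreated replicate 3) and from -0.24 to 0.32 for BDNF IgA (-0.18 and -0.19 without BDNF replicates 1 and 3, -0.24 without untreated replicate 1). DNAH1 against untreated cells was -0.28 with library sizes alone, -0.78 with voom, -0.01 with no filter, -0.22 with the replicate block and from -1.10 without IgA replicate 3 to 0.45 without IgA replicate 2, with -0.06 and -0.14 without untreated replicates 1 and 2. Against IgG it ran from -1.54 without IgA replicate 3 to 0.02 without IgA replicate 2. The cause of these changes was not tested. Library sizes alone moved the median of all genes to -0.22 (IgA against untreated cells) and -0.25 (IgA against IgG).

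Libraries with the same replicate number did not deviate together (correlations of -0.069 to 0.247 in the first series, -0.017 to 0.089 in the second, with 1 and 0 of 9 over 0.1), so the numbers were not used as a pairing. The replicate block gave the counts above and left the other counts of called members within 1.5 times. Depth limits what can be said of CCDC39, GMNC, TPPP3 and, in the second series, FOXJ1, which had 34 reads or fewer in every library.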

Other observations

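Cilia that do not beat, and the transport that builds both kinds, were covered by 54 genes of intraflagellar transport and the primary cilium, all of which had enough counts in both series. In the first series 9 were called lower and 5 higher with IgA against untreated cells, and 8 lower and 4 higher against IgG, or 25.9% and 22.2% of the list beside 25% and 24.2% of all genes tested, with medians of -0.11 and -0.09. TTC30B, a part of the transport train, was lowest in both (-1.11 ± 0.18 each), and BBS4, a part of the BBSome, followed (-0.83 ± 0.14 and -0.90 ± 0.14). In the second series 3.7% of the list were called with TSPAN7 IgA against untreated cells, beside 8.54% of all genes. IFT172 fell by 0.26 ± 0.06 and IFT122 by 0.20 ± 0.06 on the log2 scale with TSPAN7 IgA against untreated cells (adjusted p = 0.00831 and 0.0304), of which the first was lost without untreated replicate 1 or 2 or TSPAN7 replicate 2 and the second without untreated replicate 1 or 2 or TSPAN7 replicate 1 or 3.

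Notch signalling holds back the choice of the multiciliated fate in airway and other epithelia, and 24 of its genes formed a last list, 21 of them tested in the first series, 23 in the second. With IgA against untreated cells 8 were called lower and 1 higher, and against IgG 7 lower and 2 higher, with medians of -0.26 and -0.30. These were 42.9% of the tested list in each comparison, beside 25% and 24.2% of all genes. Among the genes called, the target gene HEYL (-1.55 ± 0.34), the receptor NOTCH3 (-1.30 ± 0.19) and the fringe enzyme LFNG (-1.63 ± 0.47) had the largest changes against untreated cells, and LFNG was lost there without IgA replicate 1 or any untreated library. With TSPAN7 IgA against untreated cells 3 were higher and 2 lower, or 21.7% beside 8.54% of all genes, with HEY1 at -0.58 ± 0.15, NRARP at 0.43 ± 0.12 and HES4 at 0.37 ± 0.08 (adjusted p = 0.0211, 0.0246 and 0.00542). HEY1 was lost without TSPAN7 replicate 1 or 2 or untreated replicate 2 or 3, and NRARP without TSPAN7 replicate 1 or 2 or untreated replicate 1 or 3. IgG against untreated cells gave 0 calls on both lists by edgeR, DESeq2 and limma, and 0 at an unadjusted p under 0.05.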
